A study of Mus musculus with 12 samples.

Results

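Soluble guanylate cyclase (sGC) and the genes that feed it, answer to it and end its signal were examined in hearts that had lost CYB5R3 from cardiomyocytes. The set held 10 named genes of the 53700 in the deposited count table, found by Ensembl identifier and gene symbol: the nitric oxide (NO) synthase genes Nos3 and Nos1, the sGC subunit genes Gucy1a1, Gucy1b1 and Gucy1a2, the cGMP-dependent kinase gene Prkg1, and the phosphodiesterase genes Pde5a, Pde9a, Pde3a and Pde2a. Of these, 8 passed the filter on low counts and were among the 17847 genes tested, and Nos1 and Pde2a did not pass.

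The comparison used the whole hearts of 12 male mice, 6 per group. The ac-WT mice had the genotype CYB5R3wt/wt with Myh6-CreERT2, and the ac-CYB5R3-KO mice had CYB5R3fl/fl with the same Myh6-CreERT2. All 12 mice carried the Cre and received Tamoxifen for 5 days (33 mg/kg/d), beginning when they were 10 to 13 weeks old, and the hearts were taken 5 days after the last dose. The Cre was heterozygous, and the line began on a mixed FVB/B6 background that was later crossed into C57BL/6J. The Myh6 promoter drives Cre in cardiomyocytes, so the other cells of the heart kept their Cyb5r3 alleles and contributed RNA to every library.

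NO made by the synthases diffuses to the heme of sGC, a heterodimer of an α and a β subunit, and switches on its conversion of GTP to cGMP. cGMP activates cGMP-dependent protein kinase (PKG) and is broken down by phosphodiesterases that differ in their preference for cGMP or cAMP. CYB5R3 is a flavoprotein reductase known to reduce oxidized heme iron in sGC, which must be reduced to bind NO, and in vessels the pathway relaxes smooth muscle while in cardiomyocytes it tempers contraction and growth.

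The sGC subunit genes of the main heterodimer lie next to each other. In the NCBIM37 (mm9) annotation, Gucy1b1 (ENSMUSG00000028005, chr3:81835926-81878633) and Gucy1a1 (ENSMUSG00000033910, chr3:81896350-81949799) are both on the minus strand of chromosome 3, 17716 bases apart, with 0 annotated genes between them. Their promoters are shown because these transcripts varied together from heart to heart, as their values show. Each line gives the 250 bases before a RefSeq transcript start, 5′ to 3′ along the gene, with capitals for a CCAAT box (CCAAT, which reads ATTGG on the other strand) and a GC box (GGGCGG).
Gucy1b1, chr3:82074712-82074961 of GRCm38.p6, minus strand: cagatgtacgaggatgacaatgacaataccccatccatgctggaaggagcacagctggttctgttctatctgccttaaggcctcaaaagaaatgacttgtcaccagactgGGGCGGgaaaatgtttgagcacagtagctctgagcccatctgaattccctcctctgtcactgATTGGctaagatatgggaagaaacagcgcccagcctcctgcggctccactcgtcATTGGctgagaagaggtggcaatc
Gucy1a1, chr3:82145651-82145900 of GRCm38.p6, minus strand: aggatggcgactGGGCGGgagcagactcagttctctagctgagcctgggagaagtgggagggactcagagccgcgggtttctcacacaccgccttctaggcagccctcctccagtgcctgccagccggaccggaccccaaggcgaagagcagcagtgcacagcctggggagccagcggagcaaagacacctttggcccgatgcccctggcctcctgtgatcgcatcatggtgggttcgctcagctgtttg
The Gucy1b1 window held 2 CCAAT boxes, at 78 and 24 bases before the start, and 1 GC box at 140 bases. The Gucy1a1 window held 1 GC box, at 238 bases, and no CCAAT box. Among all 32851 windows of this length, 33.8% held a CCAAT box and 32.7% a GC box, counted on both strands, so neither motif was rare. The letters of AP-1 (TGANTCA) and of a TATA box (TATAAA), present in 6.75% and 12.4% of all windows, were found in neither, and E-boxes (CANNTG, in 66.2% of windows) were found 3 times in Gucy1b1 and 1 time in Gucy1a1. The GC content was 51.2% in the Gucy1b1 window and 64.0% in the Gucy1a1 window, against a median of 52.4%. RefSeq has another, downstream start of Gucy1a1, and its window (chr3:82145074-82145323, GC content 61.2%), which is not printed, held 0 matches to any of these motifs. RefSeq windows were found for 7 of the 10 genes.

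Levels are given as CPM, the counts of a gene per 1000000 counts of the TMM-scaled library. Total counts were between 43393183 and 53754284 per heart. ac-WT replicates 2 and 3 stood apart from the other hearts. Their TMM scaling factors were 0.570 and 0.723, against 0.988 to 1.22 in the other 10. Fold changes that moved by more than 1.5 times without these hearts are therefore also given without them. This was looked at for the 10 named genes, Cyb5r3 and pathway genes with an unadjusted p under 0.05. Other fold changes are from the main fit only. Cardiomyocyte markers such as Myh6 and Tnnt2 were abundant in every heart, with a summed level of 23987 to 55902 CPM over 10 genes in ac-WT and 18084 to 30311 CPM in ac-CYB5R3-KO hearts. In RNA from whole hearts, fewer cells of a type and less RNA per cell cannot be told apart. Cyb5r3, the targeted gene, was at 81.9 CPM in the lowest, 121 in the median and 185 in the highest ac-WT heart, and at 42.0, 52.7 and 67.4 CPM in ac-CYB5R3-KO hearts. The groups did not overlap, and Cyb5r3 fell by 1.22 on the log2 scale (SE 0.19, 95% interval -1.63 to -0.81, edgeR adjusted p = 0.0450, n = 6 and 6). This call was lost with total-count scaling (adjusted p = 0.315), with limma-voom (0.0561), with the replicate number as a block (0.100) and when some single hearts were left out (0.0305 to 0.136 over the 12), whereas the exact permutation test on Cyb5r3 alone gave its smallest possible p, 0.00216.

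None of the pathway transcripts passed the test of a difference between the groups. By edgeR, 0 of the 8 had an adjusted p under 0.05, against 0.101% of all 17847 genes (18 genes), and 0 of the 8 had an unadjusted p under 0.05, against 14.6% of all genes, of which those lower in the knockouts made up 9.73% and those higher 4.91%. DESeq2 and limma-voom also gave 0 at both thresholds. All 10 transcripts overlapped between the groups, where 1.55% of the genes tested did not overlap. The fitted log2 fold changes of the 8 ranged from -0.55 to 0.25, 5 above and 3 below 0, with a median of 0.06 against -0.0074 for all genes. With total-count scaling 7 were above and 1 below 0 (median 0.33, against 0.26 for all genes). Without ac-WT replicates 2 and 3, when 9 were tested, 3 were above and 6 below 0 (median -0.047). In the main fit the median size of the 8 regardless of sign was 0.18, and that of all genes was also 0.18. The 95% intervals of 5 of the 8 stayed within a 1.5-fold change in either direction.

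**Figure D1:**
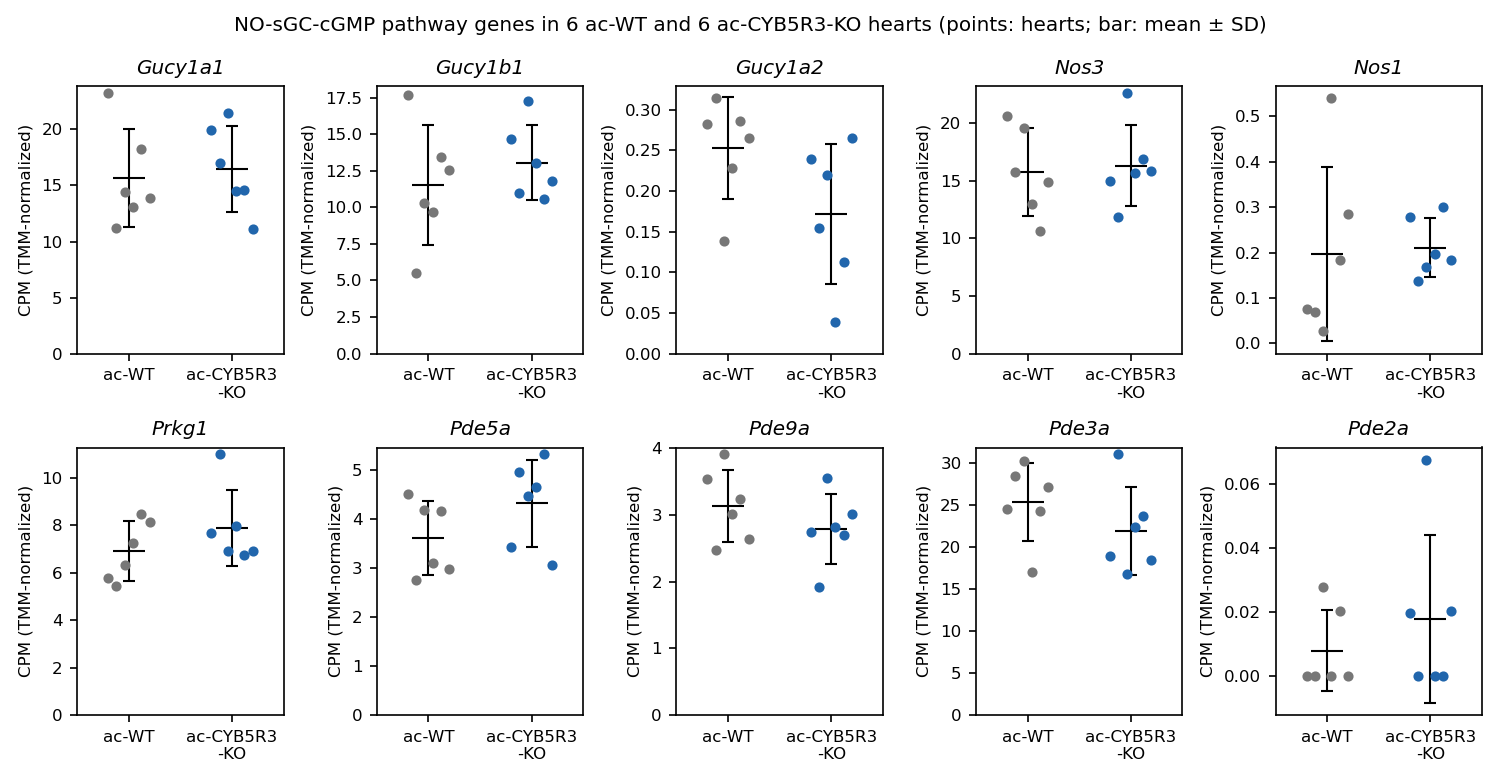
TMM-scaled CPM (vertical axis) of the 10 pathway genes in each of 6 ac-WT (grey) and 6 ac-CYB5R3-KO (blue) hearts, with bars for mean ± SD and a separate scale for each gene. The points of the groups overlap in every panel, and Nos1, Gucy1a2 and Pde2a reach at most 0.539 CPM in any heart.

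**Figure D2:**
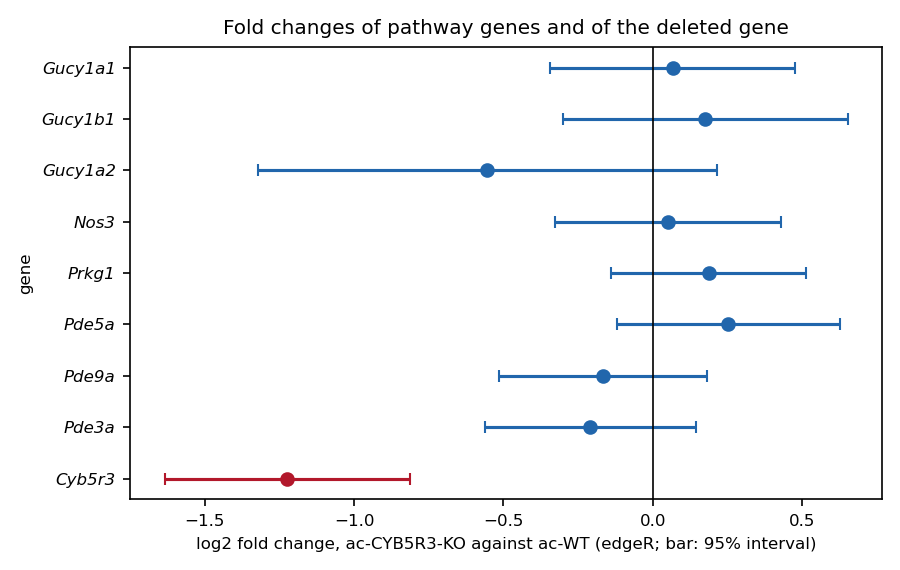
Fitted log2 fold change of the 8 pathway genes tested and of Cyb5r3 (ac-CYB5R3-KO against ac-WT, edgeR), with bars for the 95% interval. All 8 pathway intervals include 0, from Gucy1a2 at -0.55 to Pde5a at 0.25, and that of Cyb5r3 does not.

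Among the NO synthases, Nos3 was the abundant transcript and Nos1 was near the limit of detection. Nos3, the endothelial enzyme (ENSMUSG00000028978, chr5:23870628-23890292, NCBIM37, plus strand), was at 10.6 CPM in the lowest, 15.3 in the median and 20.6 in the highest ac-WT heart. In ac-CYB5R3-KO hearts it was at 11.9, 15.8 and 22.6 CPM, so that the ranges nearly coincided. The means were 15.7 ± 3.83 and 16.3 ± 3.52 CPM (SD, n = 6 each), a log2 fold change of 0.05 (SE 0.18, 95% interval -0.33 to 0.43, edgeR adjusted p = 0.908), which limits the fold to between 0.798 and 1.35. Without ac-WT replicates 2 and 3 it was 0.16. Nos3 overlaps Gm15587 and Atg9b on the other strand, which held 93 and 322 counts over all hearts against 9424 for Nos3.

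Nos1, the neuronal enzyme that is also found at the sarcoplasmic reticulum of cardiomyocytes (ENSMUSG00000029361, chr5:118231041-118408849), had between 1 and 26 counts per heart. Its level was 0.0278, 0.130 and 0.539 CPM in the lowest, median and highest ac-WT heart and 0.138, 0.190 and 0.301 CPM in ac-CYB5R3-KO hearts. The ac-WT hearts spanned the whole range of the ac-CYB5R3-KO hearts, with 57 counts in all against 67, and the exact permutation test gave p = 0.771. At such counts a difference of moderate size was not detectable. The log2 ratio of Nos1 to Nos3 within a heart was -6.71 on average in ac-WT and -6.23 in ac-CYB5R3-KO hearts (difference 0.48, 95% interval -1.19 to 2.13, exact permutation p = 0.513, adjusted 0.818 over 6 ratios), and without ac-WT replicates 2 and 3 the difference was -0.26.

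The α1 and β1 subunits of sGC, which together form the main NO receptor of heart and vessel, were measured at similar levels. Gucy1a1, which encodes α1, was at 11.2 CPM in the lowest, 14.2 in the median and 23.3 in the highest ac-WT heart and at 11.2, 15.8 and 21.5 CPM in ac-CYB5R3-KO hearts. Both groups started at about the same level and the highest heart of all was an ac-WT heart. The means were 15.7 ± 4.38 and 16.5 ± 3.82 CPM (SD, n = 6 each) and the log2 fold change was 0.07 (SE 0.19, 95% interval -0.34 to 0.48, edgeR adjusted p = 0.890).

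Gucy1b1 encodes β1, the subunit that carries the heme. It was at 5.49 CPM in the lowest, 11.4 in the median and 17.7 in the highest ac-WT heart and at 10.5, 12.4 and 17.3 CPM in ac-CYB5R3-KO hearts. The groups differed at the lower end, where 3 ac-WT hearts lay below every ac-CYB5R3-KO heart, the farthest being replicate 2, which also has the lowest scaling factor. The means were 11.5 ± 4.10 and 13.1 ± 2.55 CPM (SD, n = 6 each), with a log2 fold change of 0.18 (SE 0.22, 95% interval -0.30 to 0.65, edgeR adjusted p = 0.728). Without ac-WT replicates 2 and 3 the log2 fold change of Gucy1b1 was -0.020 and that of Gucy1a1 was -0.047. The 95% interval of the fold was 0.789 to 1.39 for Gucy1a1 and 0.812 to 1.57 for Gucy1b1, and a p above the threshold does not show that the levels were equal.

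Gucy1a2 encodes α2, an alternative α subunit known mainly from brain (ENSMUSG00000041624, chr9:3532354-3897342). It was at 0.139, 0.274 and 0.314 CPM in the lowest, median and highest ac-WT heart and at 0.0392, 0.187 and 0.265 CPM in ac-CYB5R3-KO hearts, from 2 to 15 counts per heart. Of the ac-CYB5R3-KO hearts, 2 lay below the ac-WT range and the others within it. The log2 fold change was -0.55 (SE 0.36, 95% interval -1.32 to 0.22, edgeR adjusted p = 0.486, n = 6 each) and the exact permutation test gave p = 0.0866. This was the widest interval of the 8, which allows a fold from 0.400 to 1.16. The log2 fold change was -0.71 to -0.34 when single hearts were left out and -0.29 with total-count scaling.

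The α1 and β1 transcripts varied together across hearts. With the group mean removed, log2(CPM + 1) of Gucy1a1 and Gucy1b1 had a Pearson r of 0.80 and a Spearman rho of 0.73 over the 12 hearts, and r was also 0.80 over the 10 hearts without ac-WT replicates 2 and 3. These points share library and scaling factor, and the value is a description. The ratio of Gucy1a1 to Gucy1b1 counts, which does not depend on the scaling between hearts, was 1.11 to 2.03 in ac-WT hearts (geometric mean 1.40) and 0.943 to 1.55 in ac-CYB5R3-KO hearts (geometric mean 1.25). On the log2 scale the ratio was 0.17 lower in ac-CYB5R3-KO hearts, within the spread between hearts (difference -0.17, 95% interval -0.53 to 0.17, two-sided exact permutation p = 0.331, adjusted 0.818 over 6 ratios), and without ac-WT replicates 2 and 3 the difference was -0.03. Gucy1a2 had 0.0169 counts per count of Gucy1a1 in ac-WT and 0.00980 in ac-CYB5R3-KO hearts, a log2 difference of -0.78 (95% interval -1.75 to 0.15, exact permutation p = 0.0996, adjusted 0.597). This difference was -1.05 to -0.47 when single hearts were left out.

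**Figure D3:**
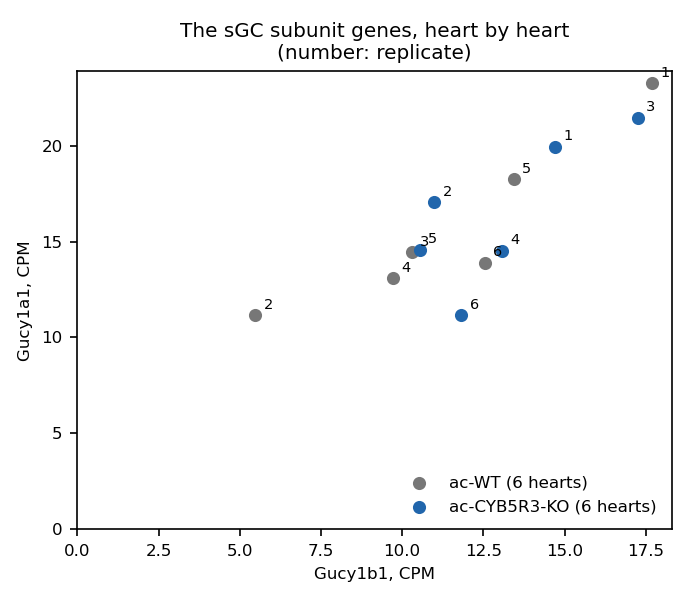
Gucy1a1 against Gucy1b1, both in TMM-scaled CPM, with 1 point per heart (grey ac-WT, blue ac-CYB5R3-KO) and its replicate number. The points follow 1 rising band (r = 0.80 with group means removed), and the groups lie on top of each other except for ac-WT replicate 2 at the lower left (Gucy1b1 at 5.49 CPM).

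Downstream of sGC, Prkg1 encodes PKG1, the main cGMP-dependent kinase of heart and smooth muscle (ENSMUSG00000052920, chr19:30643728-31839312). It was at 5.45 CPM in the lowest, 6.79 in the median and 8.49 in the highest ac-WT heart and at 6.77, 7.31 and 11.0 CPM in ac-CYB5R3-KO hearts. The ranges overlapped from 6.77 to 8.49 CPM, and 1 ac-CYB5R3-KO heart, replicate 2, lay above all others. The means were 6.91 ± 1.26 and 7.87 ± 1.61 CPM (SD, n = 6 each), with a log2 fold change of 0.19 (SE 0.15, 95% interval -0.14 to 0.51, edgeR adjusted p = 0.576), and it was 0.10 without ac-WT replicates 2 and 3. Cstf2t lies within Prkg1 on the other strand and held 10990 counts over all hearts against 4424 for Prkg1. The strand setting of the counting is not given in the sources used here, so how much the genes share cannot be told apart. The log2 ratio of Prkg1 to Gucy1b1 averaged -0.67 in ac-WT and -0.73 in ac-CYB5R3-KO hearts (difference -0.06, 95% interval -0.65 to 0.63, exact permutation p = 0.818, adjusted 0.818), and without ac-WT replicates 2 and 3 the difference was 0.10.

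The phosphodiesterases split by direction without passing a test. Pde5a, the cGMP-specific enzyme that sildenafil inhibits (ENSMUSG00000053965, chr3:122432076-122562292), was at 2.76, 3.64 and 4.52 CPM in the lowest, median and highest ac-WT heart and at 3.07, 4.57 and 5.34 CPM in ac-CYB5R3-KO hearts. Of the ac-CYB5R3-KO hearts, 3 lay above the ac-WT range and the others within it. The log2 fold change was 0.25 (SE 0.17, 95% interval -0.12 to 0.63, edgeR adjusted p = 0.509), the largest positive value of the 8 genes. Set against Prkg1 in the same heart, Pde5a had a log2 ratio of -0.93 in ac-WT and -0.87 in ac-CYB5R3-KO hearts (difference 0.07, 95% interval -0.43 to 0.57, exact permutation p = 0.760, adjusted 0.818), with a difference of 0.14 without ac-WT replicates 2 and 3.

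Pde9a, the other cGMP-specific enzyme of the set (ENSMUSG00000041119, chr17:31523179-31613255), was at 2.48, 3.12 and 3.91 CPM in ac-WT and at 1.93, 2.79 and 3.55 CPM in ac-CYB5R3-KO hearts, again lowest, median and highest. The ranges were offset slightly and overlapped for most hearts. Its log2 fold change was -0.17 (SE 0.16, 95% interval -0.52 to 0.18, edgeR adjusted p = 0.643), and -0.24 to -0.077 when single hearts were left out. Pde3a, which hydrolyses cAMP and is inhibited by cGMP, was the most abundant of the 10 transcripts (ENSMUSG00000041741, chr6:141197790-141447872). It was at 17.1, 25.9 and 30.3 CPM in ac-WT and at 16.8, 20.7 and 31.2 CPM in ac-CYB5R3-KO hearts. The lowest and highest hearts of the groups were alike and only the middle was lower in ac-CYB5R3-KO hearts (25.3 ± 4.65 against 21.9 ± 5.22 CPM, SD, n = 6 each). The log2 fold change was -0.21 (SE 0.16, 95% interval -0.56 to 0.14, edgeR adjusted p = 0.565), and -0.07 without ac-WT replicates 2 and 3. With total-count scaling, which moves the median of all genes to 0.26, Pde9a and Pde3a changed sign to 0.10 and 0.08.

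Pde2a, an enzyme that cGMP stimulates (ENSMUSG00000030653, chr7:108570212-108661340), was close to 0 in the table. It had 0 to 4 counts per heart, 2 in all ac-WT and 6 in all ac-CYB5R3-KO hearts, and was at 0 in 4 and 3 hearts of these groups. A count of 0 allows up to 3 counts, or 0.0516 to 0.105 CPM in these 7 libraries, and this limit covers counting error only. No fold is given, and the log2 ratio to Pde3a did not differ beyond its spread (exact permutation p = 0.569, adjusted 0.818 over the 6 ratios, with a difference of 0.45, or 0.68 without ac-WT replicates 2 and 3). Mir139, which overlaps Pde2a on the same strand, had 0 counts. Whether reads of Pde2a were left out of the table for overlapping another gene was not tested. Symbols were found for 57.8% of the identifiers in the table, so reads of Pde2a under an identifier with no symbol were not looked at.

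**Figure D4:**
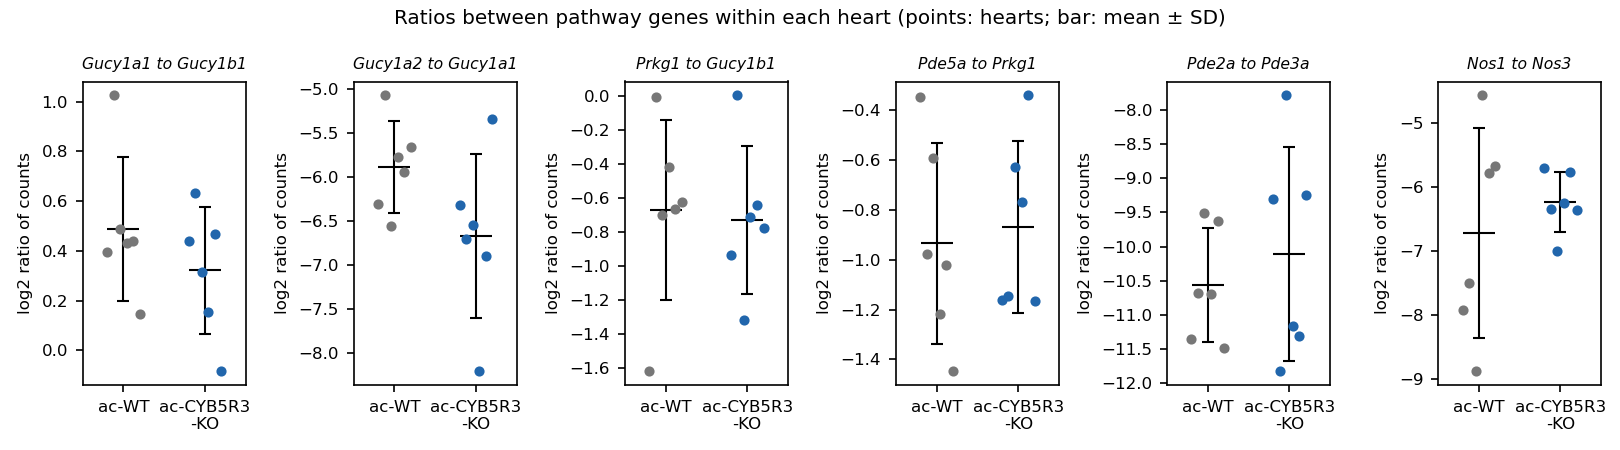
Log2 ratios of counts between pathway genes within each heart (0.5 added to each count, a separate scale for each panel), for 6 ac-WT (grey) and 6 ac-CYB5R3-KO (blue) hearts with mean ± SD. All 6 ratios overlap between the groups, and the widest differences are those of the low genes, -0.78 for Gucy1a2 to Gucy1a1 and 0.48 for Nos1 to Nos3.

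Levels of different genes were compared as CPM per kilobase of annotated exon, averaged over the 12 hearts. Pde3a was highest at 5.62 CPM per kb and lay above Nos3 in 11 of 12 hearts. Nos3 (3.87), Gucy1b1 (3.78), Gucy1a1 (3.46) and Prkg1 (3.18) followed closely. Nos3 was above Gucy1b1 in 6 of 12 hearts and Gucy1a1 above Prkg1 in 7 of 12, so these neighbours did not differ beyond their spread, whereas Gucy1b1 was above Gucy1a1 in 10 of 12. Pde9a (1.05) and Pde5a (0.449) came next and were in this order in 12 of 12 hearts. Gucy1a2 (0.0402), Nos1 (0.0188) and Pde2a (0.0028) were at the bottom. The lengths come from the NCBIM37 annotation, and the 2327 bases given there for Prkg1 may not cover its longest transcripts, in which case its true value is lower.

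Across hearts, the transcripts varied with different sets of cell type markers. Over the 12 hearts with group means removed, Nos3 had r = 0.83 with the mean of 10 endothelial markers (0.81 without ac-WT replicates 2 and 3), 0.56 with the 8 pericyte markers and 0.55 with the 8 red blood cell markers. Prkg1 had r = -0.71 with the endothelial markers (-0.70), -0.72 with the pericyte markers and -0.73 with the red blood cell markers, so its negative values were not particular to 1 cell type. Nos3 and Prkg1 ran opposite to each other, with r = -0.76 and rho = -0.80 (r = -0.81 over 10 hearts). Pde3a had r = 0.63 with the 10 cardiomyocyte markers (0.62 over 10 hearts). Gucy1b1 had r = -0.77 with the cardiomyocyte markers over 12 hearts and -0.48 over 10, and its r with the endothelial markers was 0.27 over 12 and 0.77 over 10, so both depended on the hearts that stood apart. Gucy1a1 had r = 0.47 with the endothelial and -0.54 with the cardiomyocyte markers over 12 hearts. Over 10 hearts its r was 0.70 with the endothelial and -0.76 with the macrophage markers. Gucy1b1 had r = 0.73 with the red blood cell markers over 10 hearts, so the endothelial values were not particular to 1 cell type. All of these values are descriptions over points that share library and scaling.

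The genes whose levels were most like each transcript were named by the highest Pearson r of log2(CPM + 1) over the 12 hearts, with group means removed. For Gucy1b1 they were Nup155 (0.95), Fmr1 (0.95) and Mtmr2 (0.94), and for Gucy1a1 they were Suz12 (0.90), Fam116a (0.90) and Arhgap28 (0.89). For Nos3 they were Zbtb46 (0.94), Exoc3l (0.94) and Hcfc1 (0.94), and for Prkg1 they were Napepld (0.95), Tasp1 (0.93) and Slc35f5 (0.92). For Pde5a they were Phf8 (0.96), Zfp148 (0.94) and Zfp422 (0.93), and for Pde9a they were Nadk (0.96), St8sia6 (0.91) and Pigm (0.91). For Pde3a they were Hsdl2 (0.94), Acadm (0.94) and Tarsl2 (0.94), of which Acadm encodes the medium-chain acyl-CoA dehydrogenase of mitochondrial fat oxidation. The lowest values belonged to Gucy1a2, with Lbp (0.85), Rfc5 (0.83) and Tspan32 (0.80).

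The rest of the NO and cGMP pathway was read from 8 lists. Of the 84 listed genes tested other than the 10 and Cyb5r3, 0 passed an adjusted p of 0.05 by edgeR (4 by DESeq2, 0 by limma-voom), 13 had an unadjusted p under 0.05 (15.5%, against 14.6% of all genes). Of these 13, 11 were lower in the knockouts and 2 higher, where the shares of all genes were 9.73% and 4.91%. Between the groups, 3 of the 84 did not overlap, against 1.55% of all genes. With total-count scaling the split of such genes was 2 lower and 8 higher, and over all genes it went from 1737 lower and 877 higher to 367 lower and 1686 higher. The signs of the 13 genes named here held under every alternative run, but the sizes did not. With 1 surrogate variable Pde4a went from -0.56 to -0.0036, Pde4d from -1.02 to -0.040 and Slc7a1 from -0.53 to -0.11, and Gch1 went from -0.39 to -0.11 with total-count scaling. Without ac-WT replicates 2 and 3, 4 of the listed genes were lower and 3 higher at an unadjusted p under 0.05.

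Among 24 tested genes of NO synthesis, 4 were lower and 0 higher at an unadjusted p under 0.05. Gch1, the rate-limiting enzyme for tetrahydrobiopterin, the cofactor of NO synthases, was at 7.14 to 9.12 CPM in ac-WT hearts (median 7.94) and at 5.14 to 6.68 in ac-CYB5R3-KO hearts (median 6.35). The groups did not overlap, and the log2 fold change was -0.39 (SE 0.10, edgeR adjusted p = 0.173). DESeq2 gave an adjusted p of 0.0135, and the adjusted p ranged to 0.703 with total-count scaling. The others were Gchfr, the feedback regulator of GCH1, at -0.92, Cav3, the caveolin of muscle, at -0.62, and Slc7a1, an arginine transporter, at -0.53 on the log2 scale, with overlapping groups and edgeR adjusted p of 0.274, 0.268 and 0.276. Without ac-WT replicates 2 and 3 they were at -0.42, -0.39 and -0.20, and Slc7a1 was at -0.27 without replicate 2 alone. Ddah1, which clears an inhibitor of NO synthases, had an unadjusted p of 0.0549 and spread from 4.51 to 60.5 CPM in ac-WT hearts against 48.8 to 80.6 CPM in ac-CYB5R3-KO hearts.

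Of 5 guanylate cyclase genes tested, 0 had an unadjusted p under 0.05 by edgeR, including the natriuretic peptide receptors Npr1 (log2 fold change -0.17) and Npr2 (-0.07). Among natriuretic peptide genes, 1 of 6 was higher and 1 lower. Npr3, the clearance receptor, was at 11.7 to 16.0 CPM in ac-WT hearts (median 13.0) and at 17.2 to 23.2 in ac-CYB5R3-KO hearts (median 19.9), with no overlap. Its log2 fold change of 0.57 (SE 0.10) had an edgeR adjusted p of 0.0554, and over the alternatives the adjusted p ran from 1.2e-04 with DESeq2 to 0.158. Mme, the peptidase neprilysin, had a log2 fold change of -1.05 (edgeR adjusted p = 0.188, and 0.0412 by DESeq2). The peptide genes Nppa and Nppb had log2 fold changes of 0.18 and -0.02.

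Among cGMP phosphodiesterases, 1 of 9 was lower. Pde1c, a calmodulin-dependent enzyme that hydrolyses cAMP and cGMP, was at 24.4 ± 6.21 CPM in ac-WT and 18.0 ± 4.30 CPM in ac-CYB5R3-KO hearts (log2 fold change -0.44, adjusted p = 0.294), and without ac-WT replicates 2 and 3 the log2 fold change was -0.18. Of 8 cAMP-specific phosphodiesterases, Pde4d (-1.02) and Pde4a (-0.56) were lower, with adjusted p of 0.249 and 0.277, and the groups overlapped. These values rested on the 2 ac-WT hearts that stood apart, without which Pde4d was at -0.21 and Pde4a at -0.13. Among 10 kinases, channels and exporters, the pacemaker channel gene Hcn4 was lower (-0.73, adjusted p = 0.267, and -0.41 without the same hearts). Of 20 PKG substrates and partners, 2 were lower and 1 higher. Tnni3, cardiac troponin I, was at 1482 to 4805 CPM in ac-WT and 888 to 1452 CPM in ac-CYB5R3-KO hearts, without overlap (log2 fold change -1.01, edgeR adjusted p = 0.184, and 0.0276 by DESeq2), and its log2 fold change was -0.46 without ac-WT replicates 2 and 3. Rgs2 and Rgs4, regulators of G protein signaling, were at -0.47 and 0.51 (adjusted p of 0.211 and 0.234), and at -0.28 and 0.36 without ac-WT replicates 2 and 3. Vasp, whose product is a phosphorylation target of PKG, was at 35.9 ± 4.80 and 36.1 ± 4.95 CPM (log2 fold change 0.01, adjusted p = 0.985). Of 11 genes for S-nitrosothiol and heme redox, 1 was lower, Cyb5r3 itself.

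**Figure D5:**
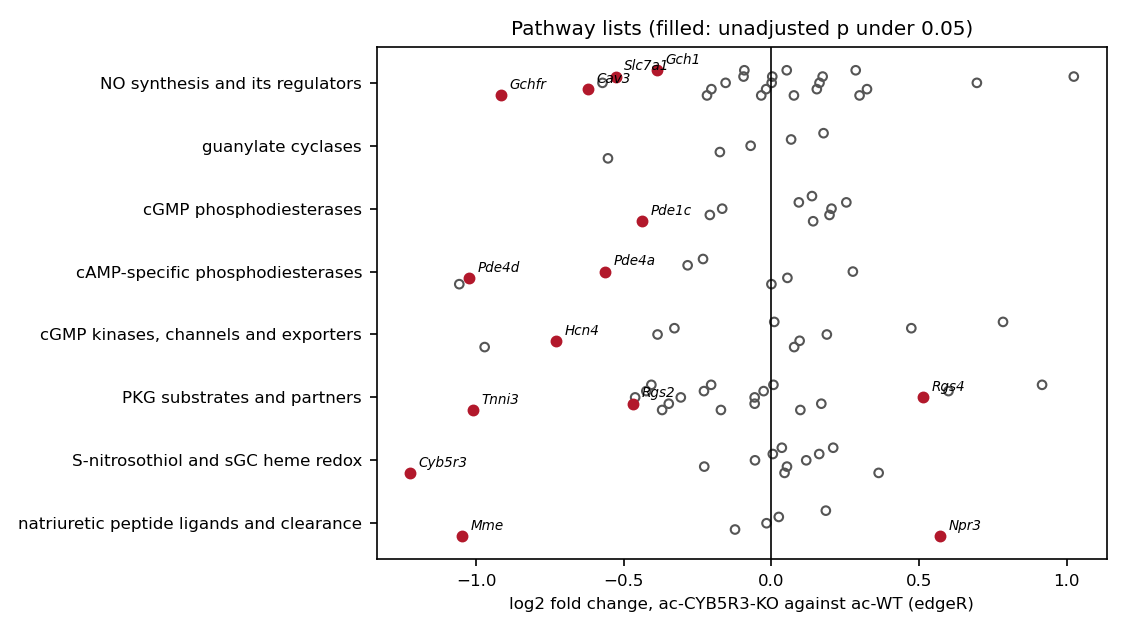
Fitted log2 fold change (ac-CYB5R3-KO against ac-WT, edgeR) of every tested gene of the 8 pathway lists, 1 row per list and 1 point per gene, with filled red points for an unadjusted p under 0.05. Most points lie between -0.5 and 0.5, Cyb5r3 is farthest left at -1.22, and Npr3 and Rgs4 are the filled points right of 0.

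Beside the values above, 4 of 10 cardiomyocyte markers were lower and 0 higher at an unadjusted p under 0.05 (median log2 fold change -0.44). Over all genes, 9.73% were lower and 4.91% higher at this threshold by edgeR. With total-count scaling the balance over all genes went from 1737 lower and 877 higher to 367 and 1686. Marker counts are given for the main fit only, with ac-WT replicates 2 and 3. Without these hearts the fall of Tnni3, also a cardiomyocyte marker, was smaller, as given above. Endothelial markers, the cell type in which Nos3 is best known, were 0 of 10 in either direction by edgeR (median -0.13, summed level 498 to 995 and 502 to 851 CPM). Of 8 smooth muscle markers 3 were higher (Cnn1, Des and Synpo2) and 4 lower (Myh11, Acta2, Smtn and Lmod1). Their summed level (1941 to 3501 and 2759 to 4568 CPM) was mostly Des, with means of 2384 CPM in ac-WT and 3605 CPM in ac-CYB5R3-KO hearts. The sum therefore does not describe the list as a whole. Of 8 pericyte markers 1 was higher and 2 lower (321 to 455 and 292 to 437 CPM). Fibroblast and macrophage markers had 0 of 8 each, at 1557 to 7280 and 3770 to 5848 CPM for fibroblasts and 390 to 1604 and 664 to 1125 CPM for macrophages. Red blood cell markers were higher for 6 of 8 (median 1.65, 425 to 8216 and 2540 to 24791 CPM). In the list of cartilage and airway markers, 4 of 5 tested were higher (median 2.17, 4.41 to 41.0 and 59.0 to 129 CPM). All 5 were cartilage genes, and the sum was mostly Comp (means 16.2 and 73.5 CPM) and Col11a1 (4.18 and 27.2 CPM). The airway genes Scgb1a1 and Sftpc were not tested and reached at most 0.0399 CPM in any heart. Adipocyte markers had 0 of 2 tested (423 to 827 and 474 to 872 CPM), and this sum was mostly Fabp4 (means 683 and 606 CPM). Adipoq, Plin1, Cidec and Lep were not tested, and their group means were at most 0.109 CPM. Nerve markers had 1 of 4 tested lower (35.5 to 154 and 104 to 187 CPM). No marker of these lists passed an adjusted p of 0.05 by edgeR, whereas Tnni3, also among the cardiomyocyte markers, did by DESeq2. DESeq2 results of the other markers are not given here. The part of these cell types in the pathway values was not tested.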

How the data were processed

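RNA was prepared from pulverized frozen hearts and libraries from total RNA with a stranded kit. The authors deposited raw read counts, a whole number per Ensembl gene (53700) and heart, without normalization. The submitters' processing notes name STAR, featureCounts and GRCm39, whereas the study's methods name mm9 with STAR and Cuffdiff. The annotation and strand setting are not given in the sources used here. The replicates were separate mice.

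Counts were filtered with filterByExpr (minimum count 10), scaled by TMM and tested with edgeR's quasi-likelihood test (edgeR 4.0.16 under R 4.3.3), which was two-sided and without covariates, and p was adjusted by Benjamini-Hochberg over 17847 genes. The deposited files are counts, so a count test took the place of Cuffdiff. Single genes, as log2(CPM + 1), and 6 within-heart ratios, with 0.5 added to each count, were compared with exact permutation tests, two-sided, on all 924 splits of the hearts, whose smallest p is 0.00216. Intervals of ratios invert this test at 95%. The spread between hearts (biological coefficient of variation 26.5%) sets the precision, except in genes with few counts. Symbols, positions and lengths came from the NCBIM37 annotation and matched 31027 identifiers (57.8%), Prmt1 not among them, with the older symbols Gucy1a3 and Gucy1b3 for Gucy1a1 and Gucy1b1. Promoters are RefSeq's (GRCm38.p6).

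Named genes were the 10 members, Cyb5r3, listed pathway genes with an unadjusted p under 0.05, and for each member the 3 genes with at least 1 CPM of highest correlation. Pathway genes named beyond this rule (Ddah1, Npr1, Npr2, Nppa, Nppb and Vasp) were chosen after their values were seen. The members, the pathway lists and the marker lists were chosen with earlier results of these data known. Alternatives were DESeq2 1.42.0, limma-voom (limma 3.58.1), total counts, no filter, 10 counts in every library, a replicate block, 1 surrogate variable (sva 3.50.0), and leaving out hearts. The edgeR, DESeq2 and limma-voom tests were also run on simulated counts with known changes, and the outcome is not given here.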

Additional observations from a re-analysis of the deposited data

Results flagged for a closer look

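For each of the 10 transcripts and each group of 6 hearts, the gap of the highest or lowest heart to its neighbour was divided by the range of the group and set against Dixon's critical value. In Prkg1, ac-CYB5R3-KO replicate 2 was at 11.0 CPM while the other 5 hearts lay between 6.77 and 7.96 CPM, a share of 0.718. In Pde2a, ac-CYB5R3-KO replicate 3 was at 0.0677 CPM while the others lay between 0 and 0.0204 CPM, a share of 0.699 that rests on 4 counts. Chance alone flags about 1 in 20 groups, and 20 groups were looked at. Without ac-CYB5R3-KO replicate 2 the log2 fold change of Prkg1 was 0.07, the lowest value among the fits that leave out 1 heart.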

How the results depend on the processing

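Of the pathway transcripts tested, 0 had an adjusted p under 0.05 in every one of the 20 alternative fits. At an unadjusted p under 0.05 the number was 0, with a range of 0 to 1 when single hearts were left out (Pde3a without ac-CYB5R3-KO replicate 2). The count over all genes, 18, was 8 with total counts, 437 with DESeq2, 2 with limma-voom, 35 with no filter, 5 with 1 surrogate variable and 7 without ac-WT replicates 2 and 3, and 2 to 38 without single hearts. The listed pathway genes at an unadjusted p under 0.05, 11 lower and 2 higher, were 7 and 6 with limma-voom, 2 and 8 with total counts, 12 and 4 with DESeq2 or with no filter, 11 and 8 with the replicate block, 3 and 1 with the surrogate variable and 4 and 3 without ac-WT replicates 2 and 3. Without single hearts they ranged from 4 to 16 lower and 2 to 6 higher, with 4 and 4 without ac-WT replicate 2.

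Small fold changes changed sign, and the cause was not tested. With 1 surrogate variable, 3 of the 8 transcripts tested were above and 5 below 0 (median -0.013). Gucy1a1 was at -0.0050 with the surrogate variable, -0.047 without ac-WT replicates 2 and 3 and -0.019 to 0.21 without single hearts. Gucy1b1 was at -0.021 and -0.020 in the first pair of settings, Nos3 at -0.060 to 0.14 without single hearts, and Pde9a and Pde3a at 0.10 and 0.082 with total counts. Without ac-WT replicates 2 and 3, the difference in log2 ratio was 0.10 for Prkg1 to Gucy1b1 and -0.26 for Nos1 to Nos3. Without single hearts it was -0.25 to 0.075 for Prkg1 to Gucy1b1, -0.040 to 0.18 for Pde5a to Prkg1 and -0.011 to 0.80 for Pde2a to Pde3a. Gucy1a2 had no value with 10 counts required in every library.

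The labels do not say whether mice with the same replicate number shared anything beyond it, such as a batch. The deviations of such mice correlated at -0.07 to 0.35 over 6 pairs, and 3 of 6 ac-WT hearts correlated best with their own number. Whether the number marks a batch cannot be told from these values. When the replicate number was added as a block, 2 genes passed an adjusted p of 0.05 in place of 18, and the lowest adjusted p of the pathway transcripts was 0.449. The counts of Nos1, Gucy1a2 and Pde2a are too low for moderate changes to be seen, and for the others the spread between hearts sets the limit.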
